A study of Mus musculus with 15 samples.

Results

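Liver regrowth after injury is driven by secreted growth factors and cytokines, the receptors that bind them and the proteins that carry the signal inside the cell. Of the 21887 protein-coding genes of the RefSeq table on chromosomes 1 to 19, X and Y, 48 such genes were examined. They were chosen by name for their role, with earlier results of these data known. They comprised 28 ligands, 16 receptors and 4 intracellular proteins (Irs1, Irs2, Smad6 and Smad7). The comparisons address whether these gene starts carried H3K4me3, H3K27me3 or both in livers of both genotypes and, for H3K27me3, at 0, 30, 40 and 96 h of regeneration.

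All livers came from C57Bl/6 mice of 8 to 12 weeks on a normal diet. They were either wild type (WT) or Uhrf1hepKO (KO), a name that gives a knockout of Uhrf1 in hepatocytes. Uhrf1 is a protein needed to copy DNA methylation, and its state in other liver cells was not measured here. H3K4me3 was profiled in 2 WT and 2 KO libraries. H3K27me3 was profiled in 2 WT libraries without regeneration, of which replicate 2 is the 0 h sample of the regeneration series, in 1 KO library, and in 1 WT library each at 30, 40 and 96 h. The titles put H3K4me3 replicate 2 of both genotypes in round 2 and the 4 regeneration libraries in round 3, and give the remaining H3K4me3 and H3K27me3 libraries no round. H3K4me3 was not followed over regeneration in the libraries used here. The labels do not say how regeneration was started, nor that replicates came from separate animals, and the libraries taken during regeneration are all WT.

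Signalling begins when a ligand such as hepatocyte growth factor (Hgf) or epidermal growth factor (Egf) binds a receptor tyrosine kinase on the cell surface, and transforming growth factor beta (Tgfb) and bone morphogenetic protein (Bmp) ligands act in parallel through receptor serine kinases. In liver the ligands and receptors are divided among cell types. Hepatocytes carry Met and Egfr, stellate cells make Hgf, endothelial cells carry Kdr and Flt1, and macrophages make Il6 and Tnf. H3K4me3 is found at the starts of active or activatable genes. H3K27me3 is laid down by Polycomb complexes in broad domains over silent genes. A gene start with both marks in whole liver may carry them in different cells, and fewer cells of a type and less mark per cell cannot be told apart here.

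A start was called marked if a region called by the authors reached within 1 kb of it on either side, by 1 bp or more. For 34 of the 48 genes the start was the annotated one. For 12 it was the gene end with more H3K4me3, a choice that favours finding H3K4me3 there, and for Pdgfb and Osm, without a peak at either end, both ends were used. No group had more than 2 libraries and the lists hold called regions, so no test was made. Beside the counts over the 48 members stand percentages of all 21887 genes or, over regeneration, of the genes marked at the start of the comparison.

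The promoters below are those on which the results turn. Bmp4 and Flt1 lost their H3K27me3 call in the KO library, Fgf2, Erbb2 and Fgfr2 had H3K4me3 in its 4 libraries and H3K27me3 in its 6, and Egfr had the longest H3K4me3 peak, 8693 bp in WT replicate 1, among members without H3K27me3. Each is 300 bases of RefSeq sequence (GRCm38.p6) read 5′ to 3′ in the direction of the gene, with the annotated start at base 251 and CG dinucleotides in capitals. Bmp4 lies on the minus strand at chr14:46390620-46390919 and holds 12 CG dinucleotides. Flt1 lies on the minus strand at chr5:147725962-147726261 and holds 29. Fgf2, on the plus strand at chr3:37348403-37348702, holds 24. Erbb2, on the plus strand at chr11:98412234-98412533, holds 21. Fgfr2, on the minus strand at chr7:130266759-130267058, holds 4. Egfr, on the plus strand at chr11:16751953-16752252, holds 15. Among Fgf2, Erbb2 and Fgfr2 the number of CG dinucleotides thus ranged from 4 to 24.
Bmp4: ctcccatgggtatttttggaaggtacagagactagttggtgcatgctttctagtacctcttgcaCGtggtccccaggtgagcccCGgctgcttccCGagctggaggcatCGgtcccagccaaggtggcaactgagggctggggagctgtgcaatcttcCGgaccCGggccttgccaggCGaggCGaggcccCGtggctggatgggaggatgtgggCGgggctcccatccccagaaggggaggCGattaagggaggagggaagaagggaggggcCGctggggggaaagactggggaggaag
Flt1: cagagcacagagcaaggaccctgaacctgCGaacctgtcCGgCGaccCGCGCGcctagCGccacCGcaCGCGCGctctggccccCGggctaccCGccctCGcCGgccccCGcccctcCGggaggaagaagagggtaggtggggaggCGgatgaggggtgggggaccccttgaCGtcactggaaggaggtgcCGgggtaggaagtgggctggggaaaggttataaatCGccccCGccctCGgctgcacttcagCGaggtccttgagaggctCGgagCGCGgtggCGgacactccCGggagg
Fgf2: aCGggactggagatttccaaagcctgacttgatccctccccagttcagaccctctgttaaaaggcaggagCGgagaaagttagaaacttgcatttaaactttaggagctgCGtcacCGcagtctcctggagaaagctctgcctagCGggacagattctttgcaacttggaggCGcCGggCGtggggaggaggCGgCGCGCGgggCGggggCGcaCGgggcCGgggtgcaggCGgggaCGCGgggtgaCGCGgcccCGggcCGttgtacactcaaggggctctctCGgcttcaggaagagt
Erbb2: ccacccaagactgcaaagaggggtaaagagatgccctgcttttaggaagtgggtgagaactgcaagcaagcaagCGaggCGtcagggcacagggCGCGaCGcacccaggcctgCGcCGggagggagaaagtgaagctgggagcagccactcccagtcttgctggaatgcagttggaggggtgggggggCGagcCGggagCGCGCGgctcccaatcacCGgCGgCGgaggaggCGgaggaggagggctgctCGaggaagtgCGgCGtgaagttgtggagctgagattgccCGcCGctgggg
Fgfr2: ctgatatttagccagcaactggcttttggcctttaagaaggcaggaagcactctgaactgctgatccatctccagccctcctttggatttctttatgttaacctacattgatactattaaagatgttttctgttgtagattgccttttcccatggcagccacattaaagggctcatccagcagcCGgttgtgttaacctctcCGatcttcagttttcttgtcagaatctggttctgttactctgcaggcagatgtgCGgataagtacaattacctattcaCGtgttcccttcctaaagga
Egfr: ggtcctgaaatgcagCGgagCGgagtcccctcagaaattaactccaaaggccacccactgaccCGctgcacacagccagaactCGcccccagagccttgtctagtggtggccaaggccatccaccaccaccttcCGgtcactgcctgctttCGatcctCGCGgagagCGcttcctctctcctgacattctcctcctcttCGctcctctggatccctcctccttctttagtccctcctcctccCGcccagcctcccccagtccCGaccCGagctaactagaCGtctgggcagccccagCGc

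Facts of the whole series bear on these calls. The replicate 1 H3K4me3 lists held 72177 (WT) and 73431 (KO) peaks and those of replicate 2 held 25714 and 27006. The replicate 2 libraries carry an antibody tag naming H3K9me3 but titles naming H3K4me3. Of their peak length, 95.8% (WT) and 92.1% (KO) lay in the replicate 1 H3K4me3 peaks of the same genotype, and 0.476% and 0.447% lay in H3K9me3 peaks. The H3K27me3 lists covered 417.5 Mb in WT replicate 1, 482.6 Mb at 0 h, 499.9 Mb in KO, and 417.3, 378.5 and 458.8 Mb at 30, 40 and 96 h. Library depth is not in the lists. Hepatocyte marker starts carried H3K4me3 in 9 or 10 of 10 cases per library and H3K27me3 in none. All 10 endothelial marker starts carried H3K4me3 in each of the 4 libraries. Macrophage marker starts with H3K4me3 numbered 1 of 10 in each replicate 1 library, 5 in WT replicate 2 and 7 in KO replicate 2.

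Most of the set carried H3K4me3, and receptors carried it more uniformly than ligands. H3K4me3 marked 41 of the 48 starts in WT replicate 1 (63.3% of all genes), 37 in WT replicate 2 (56.8%), 40 in KO replicate 1 (62.4%) and 40 in KO replicate 2 (59.5%). In all 4 libraries 35 starts were marked (56.1% of all genes), and 5 were marked in none (35.2%). Of the 28 ligands, 22 and 17 were marked in the WT libraries and 21 and 20 in the KO libraries. Of the 16 receptors, 15 were marked in each replicate 1 library and 16 in each replicate 2 library. The 4 intracellular genes were marked in every H3K4me3 library.

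**Figure D1:**
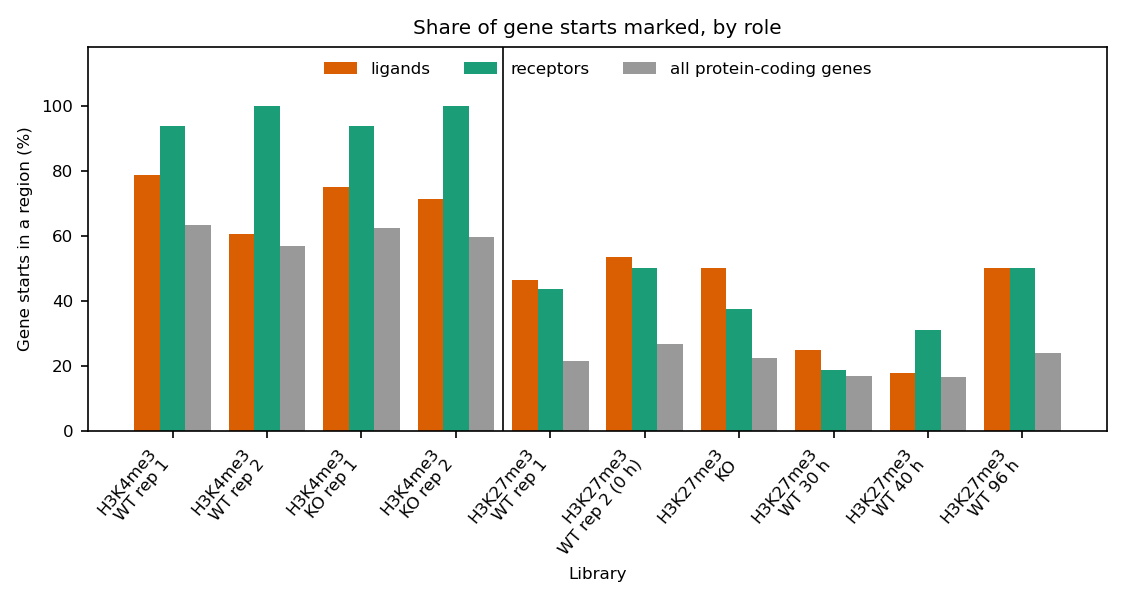
Percentage of gene starts in a called region (vertical axis) in each of the 10 H3K4me3 and H3K27me3 libraries (horizontal axis), for the 28 ligands, the 16 receptors and all 21887 protein-coding genes. For H3K4me3 the receptor bars stand above the ligand bars in all 4 libraries, and for H3K27me3 all 3 bars are lower at 30 and 40 h than at 0 and 96 h.

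Among the ligands, H3K4me3 filled the 2001 bp window in all 4 libraries at Igf1, the insulin-like growth factor made by hepatocytes, and Pdgfa, a platelet-derived growth factor chain. The window caps this measure. The longest peak at the start was 4942 to 6870 bp at Igf1, 2158 to 2431 bp at Pdgfa and 4608 to 6553 bp at Vegfa, the ligand of Kdr and Flt1. Inhba, the activin A subunit, was covered over 2001 bp in WT replicate 1, 1652 bp in WT replicate 2, 2001 bp in KO replicate 1 and 1869 bp in KO replicate 2. Hgf, the ligand of Met, was covered over 1745, 1897, 1621 and 1584 bp in the same order. Within the window both KO lengths of Hgf were below both WT lengths, while those of Igf1, Pdgfa and Inhba overlapped or were equal. The longest peak at Hgf went the other way within each replicate, with 1126 and 3211 bp in WT and 2075 and 4226 bp in KO. Its fold was 7.875 and 14.2 in WT and 7.892 and 19.22 in KO.

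The other ligands marked in all 4 libraries ranged from steady to variable across libraries. Tgfa, an Egf-receptor ligand made by hepatocytes, was covered over 1481 to 1543 bp and Vegfa over 1460 to 1480 bp. The Egf-family ligands Hbegf, Egf and Btc were covered over 1142 to 1626, 788 to 1208 and 725 to 1169 bp. Tgfb1, Tgfb2 and Tgfb3 were covered over 1179 to 1391, 651 to 1019 and 809 to 1047 bp. In the Bmp and activin branch, Bmp2 ranged from 1072 to 1817 bp, Bmp7 from 640 to 1533 bp and Inhbb from 716 to 1087 bp. Bmp7 had its 2 highest values in the replicate 1 libraries of both genotypes.

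Of the 28 ligands, 16 were marked in all 4 libraries. The 5 starts without a peak in any library were those of Fgf7 and Fgf10, fibroblast growth factors made by mesenchymal cells, Pdgfb, a growth factor for pericytes, and the cytokines Il6 and Osm. For Pdgfb and Osm only the gene ends were examined, so a start elsewhere in the gene would be missed. The nearest peak lay 8461 to 8895 bp from the windows of Pdgfb and 16207 to 17132 bp from those of Osm. Fgf1, Fgf15 and Fgf21 were marked in both replicate 1 libraries and in neither of replicate 2, as were 3.38% of all genes. Their peaks covered 144 to 374 bp of the window. The starts of Fgf1 and Fgf15 were themselves chosen by these peaks. Ereg, an Egf-family ligand, was marked in KO replicate 2 alone, by a peak of 146 bp, and its start was itself chosen by that peak.

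Among the receptors, Egfr was covered over 2001 bp in WT replicate 1, 1652 bp in WT replicate 2, 2001 bp in KO replicate 1 and 1885 bp in KO replicate 2. Igf1r, the receptor of Igf1, was covered over 2001, 1782, 1914 and 1826 bp in that order. Erbb3, a partner of Egfr and Erbb2, was covered over 1997, 1983, 1973 and 1973 bp. Met, the Hgf receptor, was covered over 1784, 1670, 1800 and 1706 bp. The 2 genotypes overlapped in Egfr, Igf1r and Met, and in Erbb3 both WT lengths were slightly above both KO lengths. Pdgfra, the receptor that marks stellate cells and fibroblasts, had the smallest cover among receptors marked in all 4 libraries, at 139, 158, 139 and 339 bp. This low cover depends on the window. In each of the 4 libraries a longer peak began outside it, between 1.60 and 1.78 kb past the annotated start. Pdgfrb, the paralogue of Pdgfra on pericytes and stellate cells, was marked in the replicate 2 libraries, over 419 bp in WT and 648 bp in KO. It was marked in neither of replicate 1, a pattern found in 0.283% of all genes. The Pdgfrb start was itself chosen by those replicate 2 peaks. Stellate and fibroblast marker starts with H3K4me3 were 8 and 7 of 10 in the WT libraries and 6 and 8 in KO.

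Flt1 was covered over 1535 bp in WT replicate 1, 872 bp in WT replicate 2, 895 bp in KO replicate 1 and 1618 bp in KO replicate 2, so the genotypes overlapped. Kdr ranged from 1305 to 1624 bp and Fgfr1 from 988 to 1020 bp. Fgfr4, the hepatocyte receptor for Fgf15, ranged from 1267 to 1469 bp, Fgfr3 from 1714 to 1961 bp and Insr from 1558 to 1862 bp. Tgfbr1 and Tgfbr2, which together bind Tgfb ligands, ranged from 1731 to 1798 and from 1534 to 1632 bp. The insulin receptor substrates Irs1 and Irs2 ranged from 1661 to 2001 and from 1715 to 1817 bp, and the inhibitory Smads, Smad6 and Smad7, from 1723 to 1809 and from 1714 to 1813 bp.

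**Figure D2:**
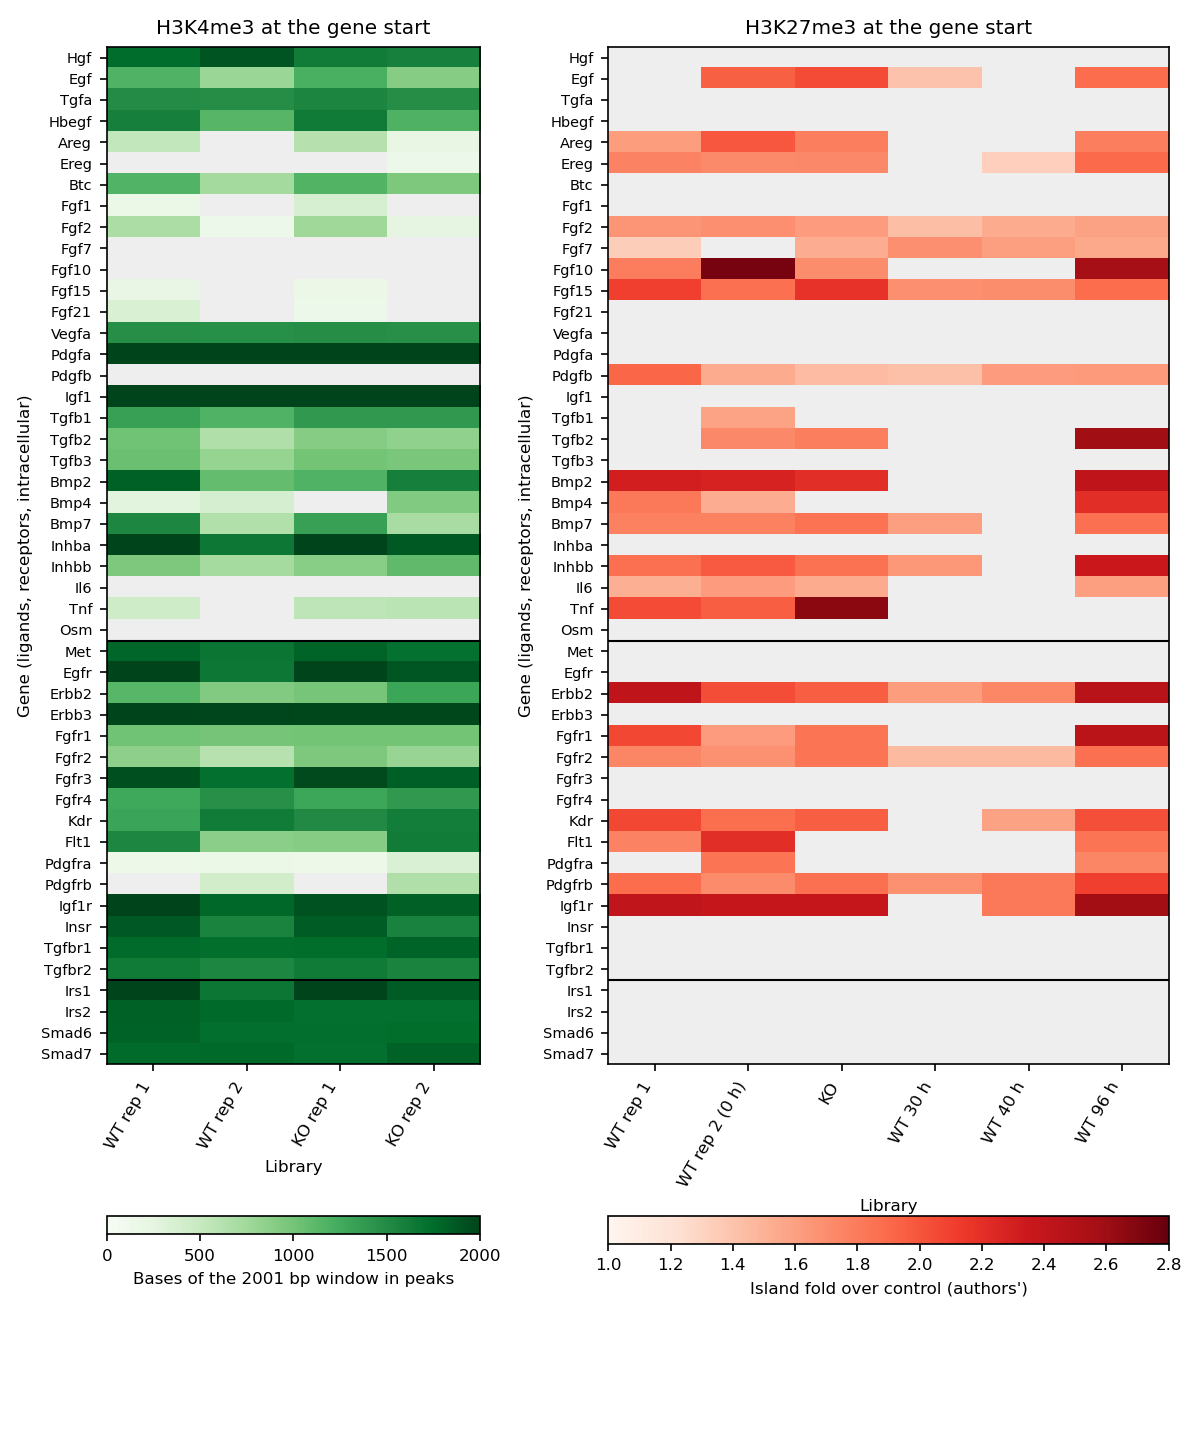
Left, bases of the 2001 bp window that lay in H3K4me3 peaks for each of the 48 genes (rows) in the 4 H3K4me3 libraries (columns). Right, the authors' fold over control of the H3K27me3 island at the start in the 6 H3K27me3 libraries, with grey for unmarked. Horizontal lines separate ligands, receptors and intracellular genes, and the H3K27me3 panel holds 10 coloured cells each at 30 and 40 h against 23 at 0 h.

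No member had a genotype difference in H3K4me3 call that both replicates shared. Such differences were too rare over all genes for their absence to set these members apart. No member was marked in both WT and neither KO library (0.0183% of all genes), and none the reverse (0.11%). Within replicate 1, Bmp4 was marked in WT and not in KO (1.59% of all genes), and none the reverse (0.74%). Its peaks covered 263 bp in WT replicate 1 and 383 bp in WT replicate 2, none of the window in KO replicate 1, where the nearest peak was 490 bp away, and 925 bp in KO replicate 2. Bmp4, a Bmp ligand, thus had both its lowest and its highest cover in KO. In every H3K4me3 library most of its peak length lay further inside the gene, up to 4.91 kb past the annotated start. Within replicate 2, Areg, Ereg and Tnf were marked in KO and not in WT (2.91% of all genes), and none the reverse (0.192%).

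The 3 ligands that differed in replicate 2 varied as follows. Areg, an Egf-family ligand, was covered over 528 bp in WT replicate 1, 0 in WT replicate 2, 615 bp in KO replicate 1 and 211 bp in KO replicate 2. Tnf, an early inflammatory cytokine, was covered over 437, 0, 562 and 577 bp in that order. WT replicate 2 was the lowest library in both genes. Macrophage marker starts with H3K4me3 were 5 of 10 in WT replicate 2 and 7 of 10 in KO replicate 2, and their part in these differences was not tested.

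H3K27me3 lay over a minority of the starts in every library. It marked 20 of the 48 starts in WT replicate 1 (21.7% of all genes), 23 in WT replicate 2, the 0 h sample (26.9%), and 20 in KO (22.4%). At 30, 40 and 96 h it marked 10 (17.0%), 10 (16.5%) and 22 (24.1%). In 24 members no library had an island at the start (67.9% of all genes), and in 6 members all 6 libraries did (10.3%). Those 6 were the ligands Fgf2, Fgf15 and Pdgfb and the receptors Erbb2, Fgfr2 and Pdgfrb. None of the intracellular genes was marked in any library.

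By role, the marked starts were 13 of 28 ligands and 7 of 16 receptors in WT replicate 1, 15 of 28 and 8 of 16 at 0 h, and 14 of 28 and 6 of 16 in KO. The receptors of the 2 main hepatocyte mitogens, Met and Egfr, had no island in any library, nor had Insr, the insulin receptor, Erbb3, Fgfr3, Fgfr4 or the Tgfb receptors Tgfbr1 and Tgfbr2. These 8 receptors carried H3K4me3 in all 4 libraries. The widest islands were at Igf1r, from 125 kb at 40 h to 509 kb at 0 h where marked, at Kdr, a Vegf receptor of endothelial cells, from 73 kb in WT replicate 1 to 305 kb in KO, and at Bmp2, a Bmp ligand of endothelial cells, from 223 kb in KO to 249 kb in WT replicate 1. An island can span several gene starts. That over Fgf15 also held the starts of Fgf3 and Fgf4 in 5 of the 6 libraries, and that over Tnf held Lta and Ltb in both WT libraries without regeneration. The Pdgfb call rested on different ends of the gene in WT replicate 1 and in KO.

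The highest island folds in WT replicate 1 were at Bmp2, Fgf15 and Tnf among ligands and at Erbb2, Igf1r and Fgfr1 among receptors. Bmp2 had a fold over control of 2.31 in WT replicate 1, 2.28 at 0 h and 2.21 in KO, and Igf1r had 2.41, 2.39 and 2.38. Fgf15 had 2.10, 1.86 and 2.18 in that order. Erbb2 had 2.42, 2.04 and 1.95, and Fgfr1 had 2.07, 1.62 and 1.84. Tnf had 2.05, 1.95 and 2.66, the last over an island of 8 kb against 21 and 31 kb in WT. The KO fold was the highest of the 3 at Tnf and Fgf15 and the lowest at Bmp2, Igf1r and Erbb2.

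In 2 members the start was marked in both WT libraries and unmarked in KO, the ligand Bmp4 and the receptor Flt1 (1.32% of all genes). No member was marked in KO and in neither WT library (0.909%). Control reads matched exactly between the KO list and that of WT replicate 1 at 414 of 414 islands of identical bounds, while WT replicate 2 belongs to round 3 and matched WT replicate 1 at 0 of 152. Set against WT replicate 1 alone, KO lacked the call at the same 2 starts (2.34% of all genes) and had one at 2 others (3.03%), Egf and Tgfb2. Set against WT replicate 2 alone, it lacked the call at 4 (6.36%), Bmp4, Flt1, Pdgfra and Tgfb1, and had one at Fgf7 (1.88%). At Pdgfra the nearest KO island, of fold 2.60, lay 1250 bp from the window. At Bmp4 the island ran over chr14:46389001-46400000 in WT replicate 1 with a fold over control of 1.81 (95% interval 1.57 to 2.09), and over chr14:46360001-46400000 at 0 h with a fold of 1.53 (1.43 to 1.63). In KO the nearest island was 68.33 kb from the window. Folds are the authors', and intervals cover counting error alone.

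At Flt1, a Vegf receptor of endothelial cells, the island ran over chr5:147669001-147729000 in WT replicate 1 with a fold of 1.76 (1.66 to 1.86), and over chr5:147709001-147728000 at 0 h with a fold of 2.20 (2.02 to 2.41). In KO an island of fold 1.79 ran over chr5:147628001-147725000 and ended 10 bp outside the window. The KO difference at Flt1 was thus one of where the island ended, and with a window of 2.5 kb either side Flt1 was marked in KO. Endothelial marker starts with H3K27me3 were 1 and 3 of 10 in the WT libraries and 5 of 10 in KO, and their part was not tested.

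The 2 WT libraries also differed from each other. Egf, Pdgfra, Tgfb1 and Tgfb2 were marked at 0 h and not in WT replicate 1 (7.16% of all genes), and Fgf7 the reverse (1.99%). At Tgfb1, the ligand that halts hepatocyte growth, the 0 h call rested on 2 bp of the window. Egf and Tgfb2 were marked in KO with folds of 2.04 and 1.78 and in WT at 0 h with folds of 1.95 and 1.73, so they differed between KO and WT replicate 1 alone. For Pdgfra the nearest island in WT replicate 1 was 250 bp from the window and had a fold of 2.93.

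**Figure D3:**
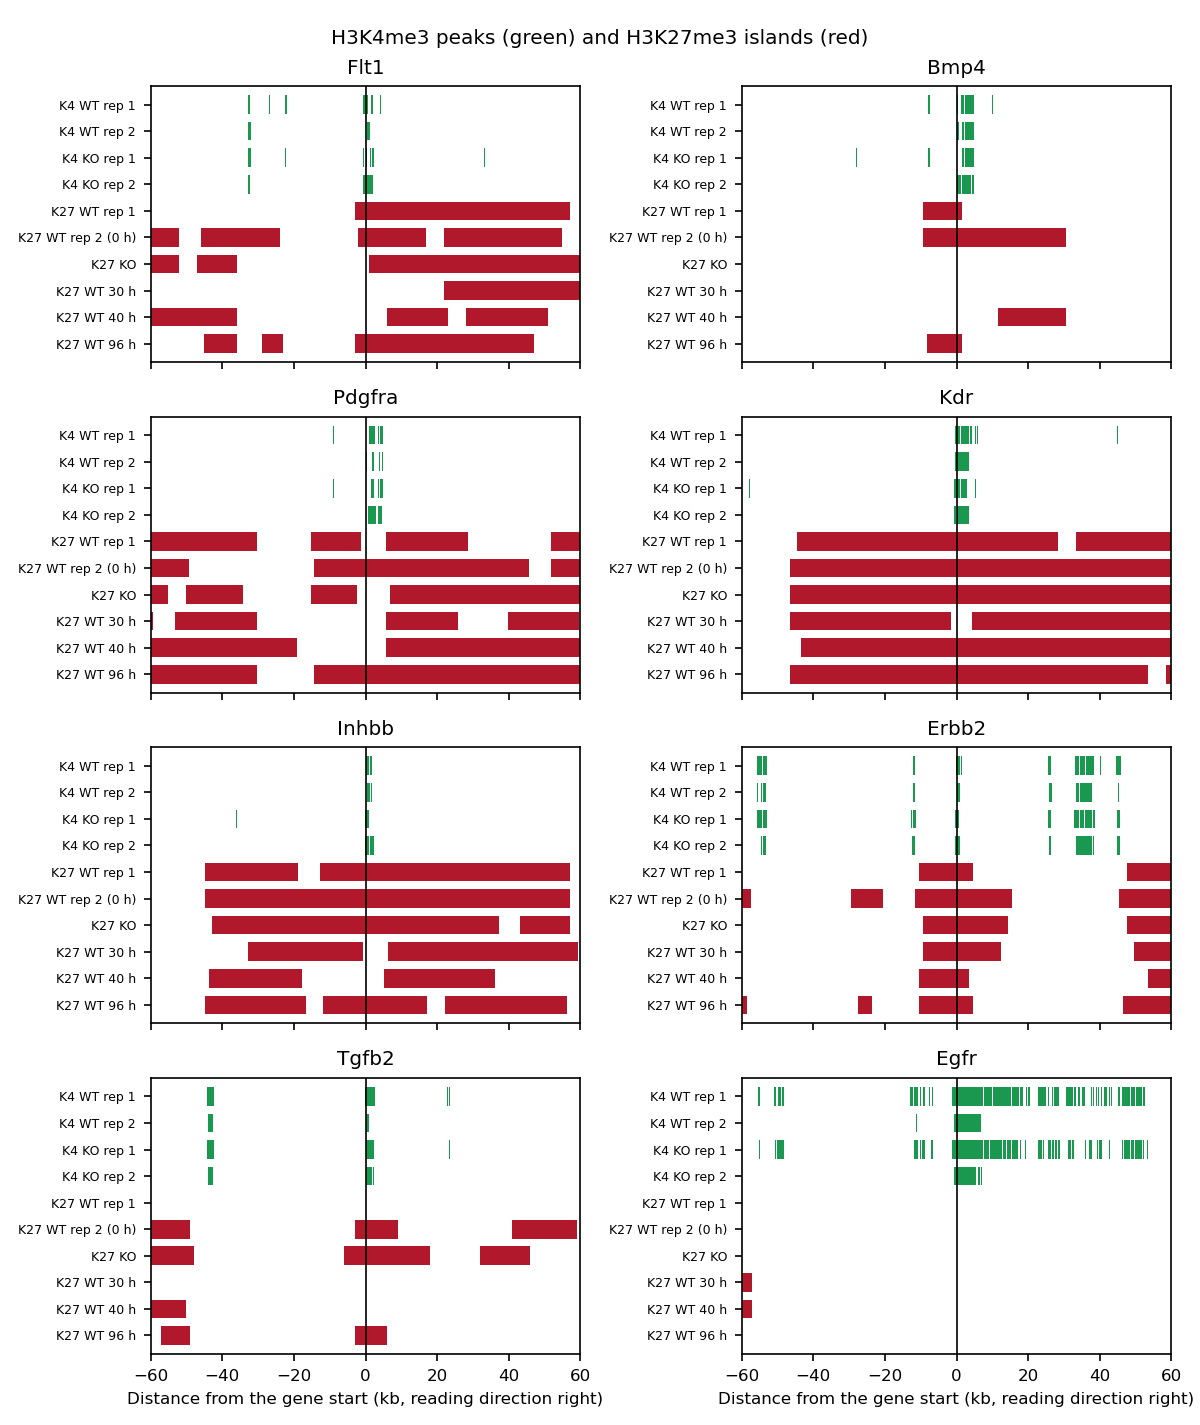
Called H3K4me3 peaks (green) and H3K27me3 islands (red) within 60 kb of the annotated start of 8 genes, with distance in kb on the horizontal axis, the gene read to the right, and 1 row per library. The KO island of Flt1 stops just inside the gene, Bmp4 has no KO island in the span, and Egfr has no island at its start in any row.

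Both marks together were found at 11 starts in WT (5.84% of all genes), taking H3K4me3 in both libraries and H3K27me3 in WT replicate 1, at 15 with H3K27me3 of replicate 2 (7.84%), and at 13 in KO (6.98%). In WT these were 5 ligands and 6 receptors, and in KO 8 ligands and 5 receptors. The 9 shared by both genotypes were Bmp2, Bmp7, Erbb2, Fgf2, Fgfr1, Fgfr2, Igf1r, Inhbb and Kdr. Bmp4 and Flt1 had both in WT and not in KO, and Areg, Egf, Tgfb2 and Tnf in KO and not in WT. The KO additions rested on the WT libraries that lacked a call, H3K4me3 of replicate 2 for Areg and Tnf and H3K27me3 of replicate 1 for Egf and Tgfb2.

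H3K4me3 in all 4 of its libraries and H3K27me3 in all 6 of its libraries were present at 3 starts (1.87% of all genes), Fgf2, Erbb2 and Fgfr2, whose promoters are printed above. Fgf2, a growth factor of endothelial and mesenchymal cells, had H3K4me3 over 686, 143, 758 and 231 bp in WT replicates 1 and 2 and KO replicates 1 and 2. Its peak in WT replicate 2 was weak, with a fold of 3.43 and a −log10 q of 1.61, and would not pass a −log10 q of 5. Erbb2, the Egfr partner without a ligand of its own, had 1139, 918, 982 and 1290 bp. Fgfr2, a receptor of Fgf7 and Fgf10, had 859, 602, 938 and 801 bp. The H3K27me3 call of Fgfr2 at 30 h rested on 808 bp of the window, from an island upstream that did not hold the start. In all 3 the H3K4me3 cover was below the 2001 bp seen at Egfr in replicate 1. Conversely, 21 members had H3K4me3 in all 4 libraries and H3K27me3 in none (46.8% of all genes), comprising 9 ligands, 8 receptors and the 4 intracellular genes. Osm, a cytokine of macrophages, was the one member with neither H3K4me3 nor H3K27me3 in any library (18.4%).

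During regeneration the number of members with H3K27me3 went from 23 at 0 h to 10 at 30 h, 10 at 40 h and 22 at 96 h. The 0 h call was missing at 30 h for 14 of these 23 starts and at 40 h for 14, beside 42.5% and 45.0% of the starts of all genes with a 0 h call. It was missing at both times for 11 (30.8%), and at 96 h for Tgfb1 and Tnf, 2 starts (20.2%). The 30 and 40 h lists differ from the others in ways that touch every gene. The islands held 21738935 ChIP reads at 0 h and 15168562, 12764569 and 21374188 at 30, 40 and 96 h. The median island fold was 1.58, 1.45, 1.45 and 1.56 in that order. Control reads instead set the 0 h list apart, matching the 30 h list at 1 of 53 islands with identical bounds. They matched at 100 of 100 such islands between 30 and 40 h, 86 of 86 between 40 and 96 h and 77 of 77 between 30 and 96 h. Whether the control library or its processing differed cannot be told from the lists. The part of these differences in the lower counts was not tested. With islands ranked by fold and kept up to the same covered length, that of the 40 h list, the counts of members stayed at 23, 10, 10 and 22. This filter only removes islands, so it cannot restore a call at 30 or 40 h.

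Of the 21 members marked at 0 and 96 h, 9 were unmarked at both 30 and 40 h (21.9% of all genes marked at 0 and 96 h). They were the ligands Areg, Fgf10, Tgfb2, Bmp2, Bmp4 and Il6 and the receptors Fgfr1, Flt1 and Pdgfra. Fgf10 had the highest island fold of the set at 0 h, 2.74 (2.35 to 3.19), and 2.57 (2.26 to 2.93) at 96 h. Tgfb2 had 1.73 at 0 h and 2.59 at 96 h, and Fgfr1, a receptor of Fgf2, had 1.62 and 2.44. In all 3 the fold at 96 h was at or above 2.44. Bmp4 had 1.53 at 0 h and 2.21 at 96 h, Flt1 had 2.20 and 1.84, and Pdgfra had 1.84 and 1.74. The 96 h fold was thus higher than that at 0 h in some of the 9 and lower in others. Island lengths at 0 and 96 h were 40 and 10 kb at Bmp4 and 21 and 10 kb at Fgfr1. They were 12 and 9 kb at Tgfb2, 6 and 8 kb at Fgf10 and 19 and 50 kb at Flt1. Control reads at 96 h matched those at 30 h, which matched those at 0 h at 1 of 53 islands. The part of island length and control in these folds was not tested.

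Several of the intermediate calls were decided near the edge of the window. At Bmp2, whose island had folds of 2.28 at 0 h and 2.42 at 96 h, an island lay 158 bp outside the window at 30 h. At Il6, with folds of 1.62 and 1.61 at 0 and 96 h, one lay 113 bp outside at 40 h. At Kdr, the main Vegf receptor, marked at 0, 40 and 96 h with folds of 1.87, 1.59 and 2.02, one lay 545 bp outside at 30 h. Calls made by a small overlap were those of Inhbb at 30 h, with 248 bp of the window, and Igf1r at 40 h, with 257 bp. With a window of 500 bp either side, both joined the members unmarked at 30 and 40 h and marked at 0 and 96 h, which then numbered 11. Of the 14 members unmarked at 30 h, 5 had an island within 5 kb of the window (35.7%, against 27.8% of all such genes). At Areg, with folds of 1.99 at 0 h and 1.77 at 96 h, the nearest at 40 h was 9598 bp away.

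Other members were unmarked at 1 of the 2 intermediate times. Ereg and Igf1r were unmarked at 30 h and marked at 40 h, with folds of 1.33 and 1.82. Egf, Bmp7, a Bmp ligand, and Inhbb, the activin B subunit, were marked at 30 h with folds of 1.40, 1.60 and 1.64 and unmarked at 40 h. Receptors made up 5 of the 14 unmarked at 30 h and 3 of the 14 unmarked at 40 h. Fgf7 went the other way, unmarked at 0 h and marked at 30 h (1.54% of all genes), 40 h and 96 h with folds of 1.70, 1.60 and 1.55, but it was marked in WT replicate 1 with a fold of 1.34.

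At all 4 times 6 members were marked (41.0% of all genes marked at 0 h). Erbb2 had folds of 2.04 (1.89 to 2.19) at 0 h, 1.62 (1.48 to 1.77) at 30 h, 1.73 (1.53 to 1.96) at 40 h and 2.46 (2.23 to 2.71) at 96 h. Pdgfrb had 1.71, 1.68, 1.81 and 2.10, and Fgfr2 had 1.68, 1.45, 1.45 and 1.86. Fgf15, the intestinal bile acid signal, had 1.86, 1.69, 1.70 and 1.88. Fgf2 had 1.70, 1.43, 1.54 and 1.58, and Pdgfb had 1.54, 1.42, 1.62 and 1.63. For Pdgfb, where both gene ends were used, the strongest island lay at one end at 30 h and at the other at 40 and 96 h. The folds belong to islands called separately at each time, whose lengths differ, at Fgf15 from 220 kb at 0 h to 77 kb at 30 h and at Pdgfrb from 228 to 91 kb. The folds were numerically lower at 30 h than at 0 h in these 6 members, as was the median over all marked starts, 1.76 at 0 h and 1.51 at 30 h, and the difference was not tested.

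**Figure D4:**
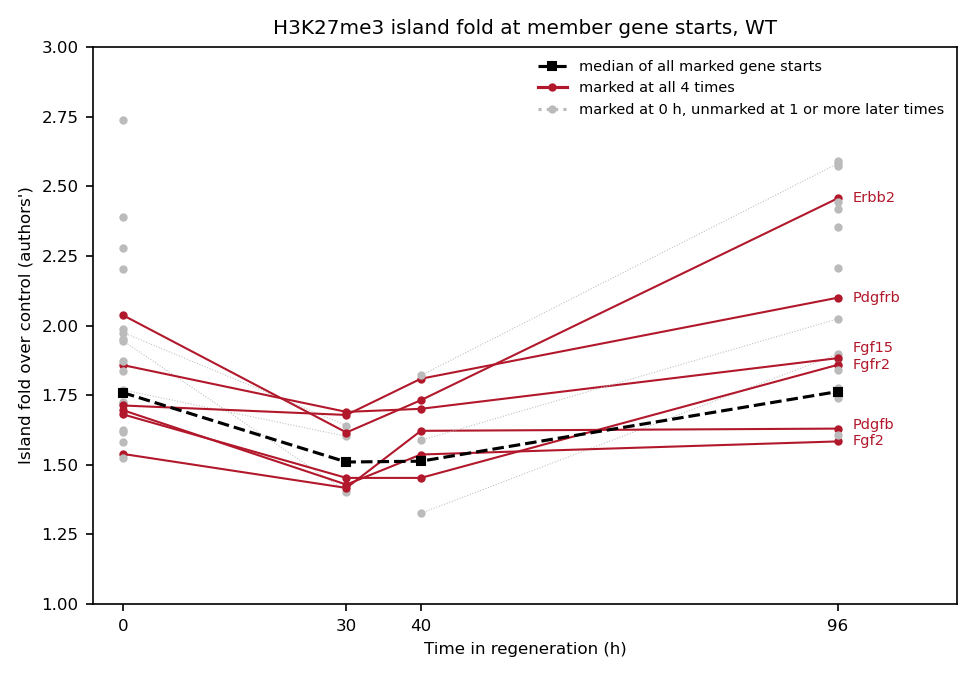
The authors' fold over control of the H3K27me3 island at the start (vertical axis, linear) against time in regeneration in hours (horizontal axis), 1 WT library per time, for the 23 members marked at 0 h. Red lines are the 6 members marked at all 4 times, grey points the others where marked, and the dashed line is the median of all marked gene starts, which was 1.76 at 0 h and 1.51 at 30 h.

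The wider pathway was described with 123 further ligands, receptors and regulators. H3K4me3 marked 102 (82.9%) and 87 (70.7%) of them in the WT libraries and 95 (77.2%) and 90 (73.2%) in KO, beside 63.3%, 56.8%, 62.4% and 59.5% of all genes. H3K27me3 marked 38 (30.9%) in WT replicate 1, 47 (38.2%) at 0 h and 39 (31.7%) in KO, beside 21.7%, 26.9% and 22.4% of all genes. At 30, 40 and 96 h it marked 29 (23.6%), 28 (22.8%) and 45 (36.6%), beside 17.0%, 16.5% and 24.1%. Spry1, an inhibitor of receptor tyrosine kinase signalling, had H3K27me3 in both WT libraries and not in KO (1.32% of all genes), and none had the reverse (0.909%). Of those 47 at 0 h, 18 (38.3%) had no call at 30 h, beside 42.5% of all genes, and 22 (46.8%) had one at each of the 4 times, beside 41.0%. Of the 44 with a call at 0 and 96 h, 10 (22.7%) had none at 30 and 40 h, beside 21.9%. These shares were near those of all genes. Among the 22 were Fgf3, Fgf4 and Nrg1.

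H3K9me3, a mark of constitutive heterochromatin, was profiled in 1 WT and 1 KO library without regeneration. Broad peaks lay at an end of Osm in WT (1.89% of all genes), and at an end of Osm and the start of Fgfr2 in KO (1.91%). Both ends of Osm were used, so these peaks need not lie at its start. At Osm they covered 173 bp of the window in WT with a fold of 3.58 and 499 bp in KO with a fold of 3.47. Both were weak, with a −log10 q of 2.497 in WT and 2.216 in KO. At Fgfr2 a peak covered 164 bp in KO with a fold of 4.40. Osm was the one member with H3K9me3 in both genotypes.

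The median number of CG dinucleotides was lower at members whose start lacked H3K4me3 in 1 or more libraries. RefSeq promoters were matched for 34 members, and the higher count was taken where a gene had several. Those with H3K4me3 in all 4 libraries and no H3K27me3 had a median of 22 CG dinucleotides in 300 bases (16 members, range 5 to 41, and 22 over all genes of that class). Those with H3K4me3 in all 4 and an island in at least 1 library had a median of 21 (11 members, 21 over all genes). Those with H3K4me3 in 0 to 3 libraries and an island in at least 1 had a median of 11 (6 members, 6 over all genes). CG reads the same on both strands. Within the first class Btc, Igf1, Inhba and Hgf had 5 to 7, well below the class median. Igf1r, in the second class, had the highest count of the set at 48.

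**Figure D5:**
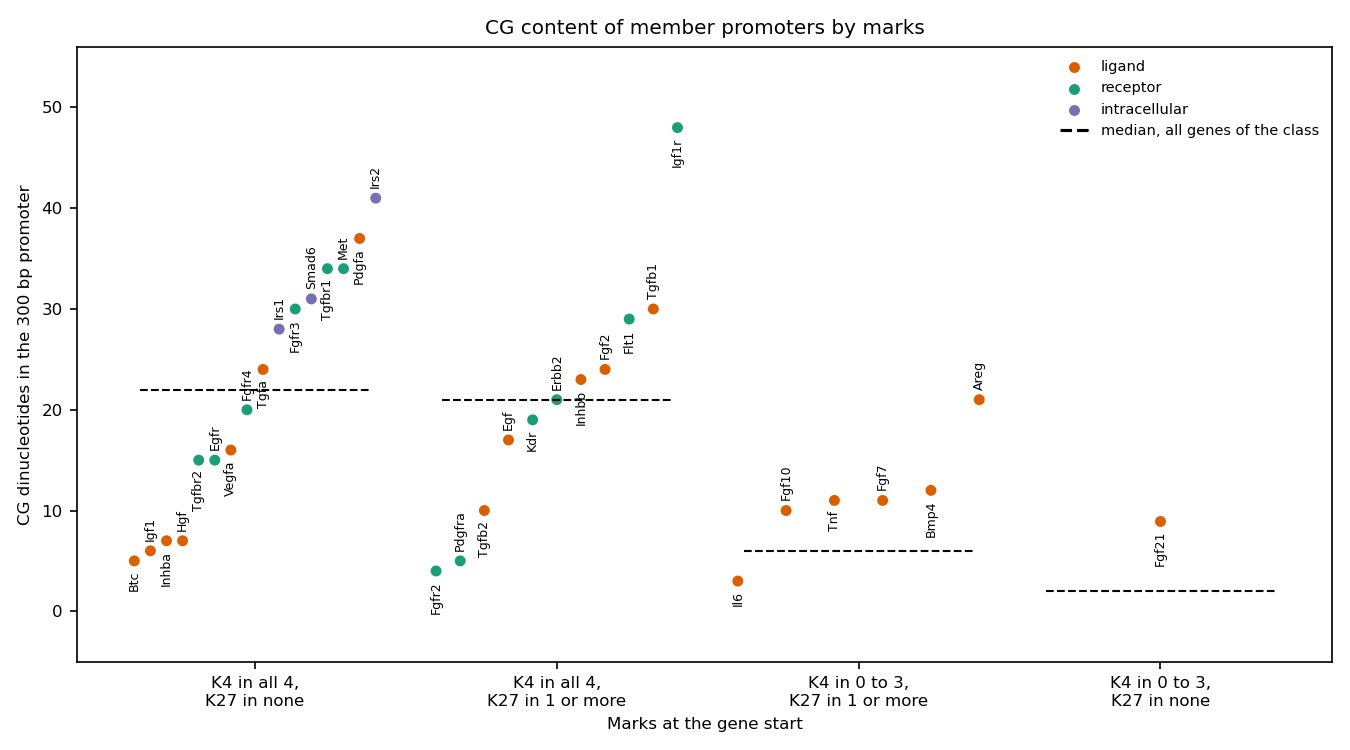
Number of CG dinucleotides in the 300 bp RefSeq promoter (vertical axis) of 34 members grouped by the marks at the start (horizontal axis), coloured by role, with points spread sideways for legibility. Dashed lines are the medians over all genes of each class, 22, 21, 6 and 2, and ligands such as Btc, Igf1, Inhba and Hgf sit far below the dashed line of the first class.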

How the data were processed

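ChIP-seq regions of 12 libraries from mouse liver were used, and 3 inputs had no list of their own. Nuclei were digested with micrococcal nuclease, per the series description. Per the submitters' processing notes, the authors' tools were BWA, Picard, Trimmomatic, SICER, MACS2 and FastQC 0.11.5, and the builds GRCm38.p4 and mm10. Further versions and settings: not given in the sources used here. Each library has its own list. The deposited peak lists give a score, a fold enrichment (ratio) with −log10 values for the p-value and q-value of each peak. The deposited H3K27me3 lists are SICER islands (window 1000 bp, gap 4000 bp, read from the list names) with raw ChIP and control read counts, a p-value, a fold over scaled control and a false discovery rate (q-value).

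Analysis used chromosomes 1 to 19, X and Y and islands at a false discovery rate of 0.01 or below. Genes and promoters came from RefSeq (GRCm38.p6). Intervals of an island's fold are exact binomial (Clopper-Pearson) 95% intervals of its ChIP share and cover counting error alone. Lost in KO means marked in every WT and no KO library without regeneration, and gained the reverse. Named genes were all members whose call differed by genotype or time, all with both marks, and per role the 3 widest in H3K4me3 and the 3 highest in island fold. Python 3.11.15, pandas 2.3.3, numpy 2.4.6 and scipy 1.17.1 were used, and the overlap code was tested on simulated regions. Members and lists were chosen with earlier results of these data known. Alternatives covered the window, start, cover, island and peak filters and left-out libraries.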

Additional observations from a re-analysis of the deposited data

How the results depend on the processing

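Of 180 alternative values for 25 counts, 148 stayed within 1.5 times the value given and 32 did not, and for these the cause was not tested except where fewer regions were kept by construction. Requiring 50% of the window to be covered gave 23, 26 and 26 members with H3K4me3 in WT replicate 2, KO replicate 1 and KO replicate 2, 9 ligands with it in all 4 libraries, and 3 members with both marks in each genotype. Keeping only islands of fold 2 or more gave 7 members in WT replicate 1, 5 at 0 h, 5 in KO, 0 at 30 h, 0 at 40 h and 10 at 96 h. It gave both marks at 5 in WT and 4 in KO, 1 lost in KO (Erbb2) and 1 gained (Egf), 5 unmarked at 30 h and 5 at 40 h, 4 lost and regained, 3 ligands and 4 receptors marked in WT replicate 1, and 13 and 2 other pathway genes at 0 and 30 h. A window of 2.5 kb left 1 member lost in KO (Bmp4). Equal covered length gave 1 gained (Fgf7) and 3 lost (Bmp4, Flt1 and Pdgfb). The same number of strongest peaks gave both marks at 6 in WT and 8 in KO. Leaving out replicates gave 0 to 1 members losing and 0 to 3 gaining H3K4me3 in KO, and 2 to 4 losing and 1 to 2 gaining H3K27me3. The members lost and regained were the same 9 with equal covered length and with every island. With the 2.5 kb window 7 of the 9 remained, and with the H3K4me3-based start 8. A 500 bp window, or 50% cover, gave 11, all 9 plus Inhbb and Igf1r. With fold 2 or more the 4 were Fgf10, Bmp2, Erbb2 and Igf1r, of which 2 were among the 9. At a −log10 q of 5 or more, both marks were at 9 members in WT and 12 in KO. Region lists carry no library depth, so a start without a region was not detected at the authors' threshold, which does not show that the mark was absent.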
